A study of Mus musculus with 6 samples.

Results

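The 9 cathepsin genes Ctse, Ctsa, Ctsb, Ctsc, Ctsd, Ctsh, Ctsl, Ctss and Ctsz were followed in mouse hematopoietic stem cells with and without the lymphotoxin β receptor (LTβR, gene Ltbr), to ask whether the low level of Ctse in Ltbr-/- cells was shared by other cathepsins. They were 9 of 26216 gene names in the data, were chosen by symbol with this comparison already known, and all 9 passed the filter that kept the upper 50% of names by mean level (13108 tested genes). Because the choice used the same comparison, the values of these 9 genes are a description and carry no test. Both groups were long-term and short-term hematopoietic stem cells (LT/ST-HSCs), sorted as viable (Annexin-V-), lineage-negative cells that were CD150+ and CD48- and carried c-Kit and Sca1, from the bone marrow (BM) of mixed chimeras 6 weeks after transplantation. Each chimera was a lethally irradiated Ly5.1/Ly5.2 mouse that had received stem and progenitor cells of both genotypes, and cells from several chimeras were pooled for each of 3 biological replicates per group. The Ltbr KO group came from Ltbr-/- (CD45.2) donors aged 10 to 13 weeks. The Ly5.1 WT group came from Ltbr-proficient Ly5.1 (CD45.1) donors aged 7 to 13 weeks. Loss of Ltbr and the donor strain therefore cannot be told apart in this comparison. Donor age also differed in range between the groups, and its part was not tested.

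Cathepsins are proteases, most of which work in the acidic interior of lysosomes and endosomes. Cathepsins B, C, H, L, S and Z use a cysteine for catalysis, cathepsins D and E use a pair of aspartates, and cathepsin A is a serine carboxypeptidase that also protects lysosomal glycosidases. Cathepsin E differs from cathepsin D in being kept largely in endosomes and the endoplasmic reticulum of immune, gastric and erythroid cells, while cathepsin D is a general lysosomal enzyme. Cathepsin C is an aminopeptidase that activates the serine proteases of granules, cathepsins L and S trim the invariant chain of MHC class II, and their activity is held in check by cystatins and serpins.

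The unit throughout is the deposited signal, whose log2 was taken as the regularized log value of a gene in a sample. Ltbr itself had a signal of 24.2, 26.4 and 23.1 in the 3 Ltbr KO samples and of 564, 549 and 522 in the Ly5.1 WT samples, a log2 difference of -4.47 ± 0.08 (SE, adjusted p = 2.15e-32 in limma). Over all tested genes 364 were called, meaning that they changed by a fold of 1.5 or more with an adjusted p under 0.05, and of these 356 were higher and 8 lower in Ltbr KO. Centring each sample on its ribosomal protein genes turned this split to 0 higher and 11976 lower, because it moved the median of all tested genes from -0.01 to -0.88, and differences under that scaling are read relative to -0.88. The 12 HSC markers were all tested, and limma called 0 of them (4 at an unadjusted p under 0.05). Their summed signal was 14494 to 15128 in Ltbr KO and 16471 to 16708 in Ly5.1 WT. On the deposited scaling, calls among markers of other cells were all upwards, with Cd79a (1 of 6 B and plasma cell markers tested), Emr1 (1 of 12 for macrophages and monocytes), Cebpe (1 of 11 for neutrophils), Cma1 (1 of 8 for mast cells and basophils), and Hba-a1 and Hba-a2 (2 of 8 erythroid markers). Limma called 0 of 6 dendritic cell, 0 of 7 T and NK cell, 0 of 5 megakaryocyte and 0 of 4 stromal and endothelial markers (3, 0, 3 and 0 at an unadjusted p under 0.05). Cebpe went against its list, where 8 of 11 markers passed the adjusted p downwards without the fold and 1 upwards. Over all tested genes these shares were 4.18% and 10.6%. The summed signal of the 11 neutrophil markers was 43107 to 43783 in Ltbr KO and 55919 to 60303 in Ly5.1 WT, and that of the 8 erythroid markers was 4526 to 4847 and 3092 to 3429. For the 13 macrophage and monocyte markers in the data it was 7077 to 7762 in Ltbr KO and 7786 to 8276 in Ly5.1 WT. Without the fold, 2 of these passed the adjusted p upwards and 1 downwards (Lyz2, at -0.42). In such bulk samples, fewer cells of a type and less RNA per cell cannot be told apart.

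Ctse, the gene of the aspartic protease cathepsin E, lies on chromosome 1 (GRCm38 chr1:131638314-131675507, plus strand). Its signal was 460, 296 and 446 in the Ltbr KO samples and 2207, 2346 and 2438 in the Ly5.1 WT samples. The highest Ltbr KO value lay far below the lowest Ly5.1 WT value. The means were 401 ± 91.1 and 2330 ± 116 (SD, n = 3 each), which made Ly5.1 WT 5.82-fold higher, and the log2 difference was -2.57 ± 0.11 (SE). Among the 13108 tested genes this was the second lowest difference after that of Ltbr itself. Spread between replicates was wider in Ltbr KO, where the coefficient of variation was 22.7%, than in Ly5.1 WT, where it was 4.99%. Here and elsewhere the SE of a log2 difference is limma's, with each gene's variance drawn towards that of genes with like means. The log2 values of Ctse had a pooled SD of 0.26 within groups, so its SE of 0.11 understates the spread of its own replicates. Replicate 2 of Ltbr KO was the lowest of its group for Ctse, Ctsb, Ctsz and Ctsh and the middle one for the other 5 genes.

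Ctsd (chr7:142375910-142387827) encodes cathepsin D, the other aspartic cathepsin, and did not share the low level of Ctse. The stretches of coding sequence around the catalytic aspartates of Ctse and Ctsd are shown to place the genes side by side, with Napsa (napsin A) at the first of them as a further aspartic protease of these cells. Each run holds 60 bases of GRCm38 coding sequence, 5′ to 3′ on the gene's strand, with the codons of the aspartate-threonine-glycine motif in capitals. The first site lies in exon 4 of 10 in Ctse (chr1:131663344-131663403, plus strand), exon 3 of 9 in Ctsd (chr7:142383449-142383508, minus strand) and exon 3 of 9 in Napsa (chr7:44581454-44581513, plus strand). The second site lies in exon 8 of Ctse (chr1:131672232-131672291) and exon 7 of Ctsd (chr7:142377083-142377142).
Ctse site 1: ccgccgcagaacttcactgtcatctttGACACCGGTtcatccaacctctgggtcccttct
Ctsd site 1: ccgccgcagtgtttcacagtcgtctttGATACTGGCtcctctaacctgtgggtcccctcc
Napsa site 1: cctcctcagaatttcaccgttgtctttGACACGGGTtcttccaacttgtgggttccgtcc
Ctse site 2: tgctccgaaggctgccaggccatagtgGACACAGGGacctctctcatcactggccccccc
Ctsd site 2: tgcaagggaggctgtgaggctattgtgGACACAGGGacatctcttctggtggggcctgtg
Ctse and Ctsd had the same base at 47 of 60 positions of the first site (78.3%) and at 40 of 60 of the second (66.7%). Ctse and Napsa had the same base at 78.3% of positions of the first site. No stretch of 76 bases, the read length, was shared between the transcripts of Ctse and those of any other gene, so that reads of Ctsd or Napsa could not be counted for Ctse by an exact match.

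Ctsd had a signal of 4772, 4852 and 5181 in Ltbr KO and of 4144, 4177 and 4489 in Ly5.1 WT. Here every Ltbr KO sample stood above every Ly5.1 WT sample, opposite to the order of the groups for Ctse. The means were 4935 ± 217 and 4270 ± 191 (SD, n = 3 each), with a log2 difference of 0.21 ± 0.07 (SE). The difference of Ctsd shrank to 0.06 under quantile normalization, less than its standard error there of 0.07. The gene overlaps Gm49369 in the annotation and shared 31.2% of its 76-base stretches with it, so its count is uncertain to that extent.

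Of the other members, 3 had their 3 Ltbr KO values above all 3 Ly5.1 WT values. Ctsz, the gene of the carboxypeptidase cathepsin Z (chr2:174427494-174439039), had a signal of 2374, 2161 and 2171 in Ltbr KO and of 1551, 1614 and 1865 in Ly5.1 WT. The highest Ly5.1 WT sample, replicate 3, remained under the lowest Ltbr KO sample, and the log2 difference of 0.42 ± 0.09 (SE) was the largest upward one among the 9 genes. Ctsc, the gene of the granule protease activator cathepsin C (chr7:88278024-88315861), had a signal of 1132, 1256 and 1391 in Ltbr KO and of 966, 959 and 1108 in Ly5.1 WT. The groups came close to each other here, with 1132 against 1108 at their nearest, and the log2 difference was 0.32 ± 0.09 (SE). Ctsa, the gene of the carboxypeptidase cathepsin A (chr2:164832872-164841032), had a signal of 2615, 2723 and 2801 in Ltbr KO and of 2465, 2307 and 2139 in Ly5.1 WT. These groups were also apart, with a log2 difference of 0.24 ± 0.08 (SE).

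The other 4 cysteine cathepsins had log2 differences below 0. Ctsh, the gene of the aminopeptidase cathepsin H (chr9:90054267-90076095), had a signal of 287, 274 and 310 in Ltbr KO and of 370, 337 and 367 in Ly5.1 WT. All Ltbr KO samples were lower, and the log2 difference of -0.30 ± 0.09 (SE) was the lowest after Ctse among the members, at 290 ± 17.9 against 358 ± 18.3 (SD, n = 3 each). Ctss, the gene of the endopeptidase cathepsin S (chr3:95526786-95556405), had a signal of 524, 541 and 545 in Ltbr KO and of 609, 547 and 588 in Ly5.1 WT. Its groups did not overlap but nearly touched, with 545 against 547, and the log2 difference was -0.11 ± 0.09 (SE). Ctsl, the gene of the endopeptidase cathepsin L (chr13:64361890-64370772), had a signal of 330, 332 and 373 in Ltbr KO and of 368, 374 and 434 in Ly5.1 WT. Its groups overlapped, at a log2 difference of -0.18 ± 0.10 (SE). Ctsb, the gene of cathepsin B (chr14:63122462-63145923), overlapped too, with 2557, 2329 and 2470 in Ltbr KO against 2508, 2468 and 2598 in Ly5.1 WT and a log2 difference of -0.04 ± 0.08 (SE). Ctsl, Ctsb and Ctsa shared 24.6%, 11.7% and 9.19% of their 76-base stretches with other genes, while Ctsc, Ctsh, Ctss and Ctsz shared none.

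**Figure D1:**
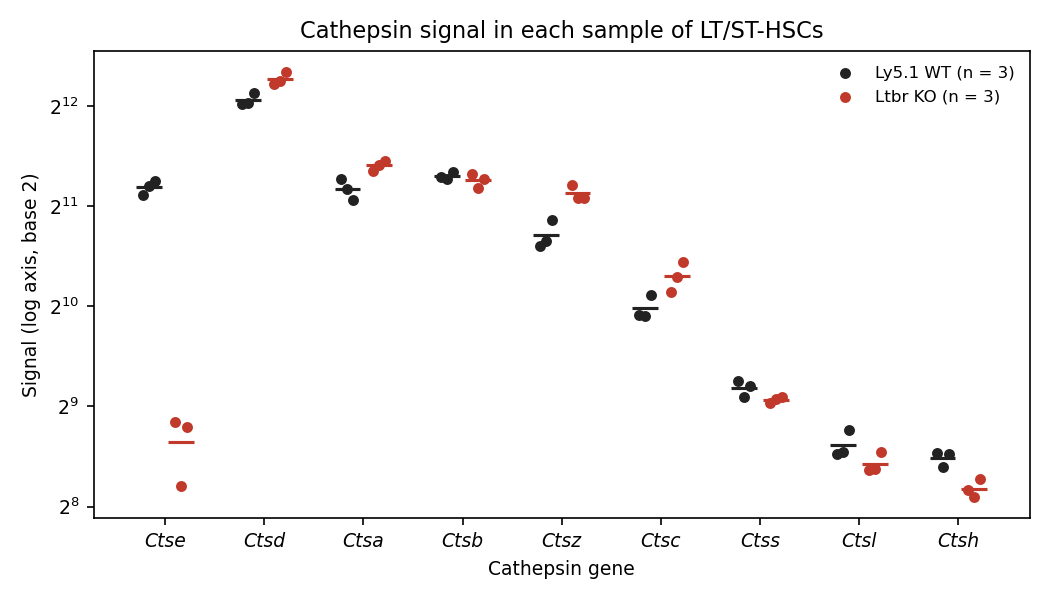
Signal of the 9 cathepsin genes (vertical axis, logarithmic, base 2) in each of the 3 Ly5.1 WT samples (black) and the 3 Ltbr KO samples (red), with a line at each group's mean. Ctse stands apart, at 296 to 460 in Ltbr KO and 2207 to 2438 in Ly5.1 WT, while the 2 groups of every other gene lie close together.

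Of the 9 members, 1 (Ctse) was past both thresholds, which 2.78% of all tested genes passed (2.72% upwards and 0.0610% downwards). Without the fold threshold 4 members were past the adjusted p upwards and 2 downwards, against 14.8% of all tested genes (10.6% and 4.18%). Groups did not overlap upwards in 4 members and downwards in 3, against 30.4% of all tested genes (17.0% and 13.5%). Since the members were chosen on this comparison, nothing is read from these shares. The 8 members other than Ctse had a median log2 difference of 0.08, from -0.30 to 0.42, with 4 above and 4 below 0, beside a median of -0.01 over all tested genes. Within the 6 cysteine cathepsins the median was -0.08, with 2 above 0. Of the aspartic cathepsins, Ctsd lay within the range of the cysteine ones at 0.21, and Ctse lay below all other members at -2.57. The balance around 0 depended on the scaling, and all 9 members were below 0 when samples were centred on ribosomal protein genes, where the 8 had a median of -0.79 beside -0.88 for all tested genes.

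Levels were compared between genes as signal per kilobase (kb) of the longest protein-coding transcript. In Ly5.1 WT, Ctsd was highest at 2008 ± 89.6 per kb, followed by Ctsz at 1164 ± 115 and Ctse at 1096 ± 54.7 (SD, n = 3 each), and the last pair differed by less than the spread of Ctsz. Ctsa (632), Ctsb (532), Ctss (429), Ctsc (314), Ctsh (222) and Ctsl (63.6) followed. In Ltbr KO, Ctse stood between Ctsc and Ctsh, at 188 ± 42.8 per kb beside 179 for Ctsh, a gap smaller than its own spread. With these lengths the remaining 8 genes kept their order, with Ctss and Ctsc (396 and 391 per kb) closer to each other than the spread of Ctsc. Part of this order depends on the transcript chosen. With the shortest transcript linked to a RefSeq mRNA, a choice added after the values were seen, Ctsl stood at 175 per kb in Ltbr KO and 199 in Ly5.1 WT. Ctsc then stood at 505 and 406 beside Ctss at 396 and 429, so that their order turned between the groups and Ctse in Ltbr KO stood between Ctss and Ctsh.

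Ctse made up 16.5, 17.5 and 17.0% of the summed signal per kb of the 9 cathepsins in the Ly5.1 WT samples and 3.42, 2.25 and 3.21% in the Ltbr KO samples. Its level per kb was 54.6 ± 1.47 for every 100 of Ctsd in Ly5.1 WT and 8.12 ± 1.83 in Ltbr KO (SD, n = 3 each). The sum of all 9 genes was nevertheless similar, at 6343 ± 179 per kb in Ltbr KO and 6460 ± 262 in Ly5.1 WT, a gap smaller than the spread of either group. The sum of the 8 without Ctse was 6155 ± 147 in Ltbr KO and 5364 ± 220 in Ly5.1 WT. On the deposited scaling the groups thus differed in the make-up of this sum, while the sums themselves overlapped.

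**Figure D2:**
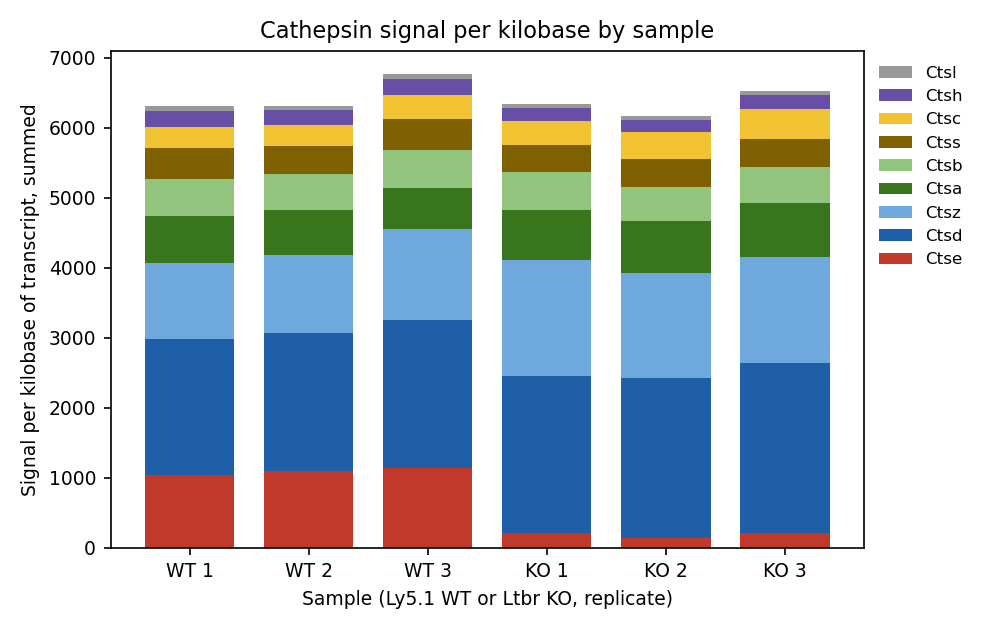
Signal per kilobase of transcript, stacked over the 9 cathepsin genes, for each Ly5.1 WT (WT 1 to 3) and Ltbr KO (KO 1 to 3) sample. The bars reach 6306 to 6762 in Ly5.1 WT and 6170 to 6527 in Ltbr KO, and the Ctse part at the base of each bar is the one that differs most.

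Beyond the 9 members, 14 further cathepsin genes were listed, of which 10 had a signal of 1 in every sample, the value held by every name that did not vary across samples. These 10 include Ctsk, the cathepsin of osteoclasts, and the cathepsins of the placenta. The remaining 4 were tested, and limma called 0 of them (3 at an unadjusted p under 0.05, 2 at an adjusted p under 0.05), with a median log2 difference of -0.29. Ctsg, the gene of the granule serine protease cathepsin G, had a signal of 1083, 1071 and 993 in Ltbr KO and of 1518, 1306 and 1578 in Ly5.1 WT. All Ltbr KO samples were lower, with a log2 difference of -0.48 ± 0.09 (SE, adjusted p = 0.000106 in limma), which missed the fold of 1.5. Ctso, chosen for naming after its values were seen, had -0.37 ± 0.10 (adjusted p = 0.00746 in limma) and likewise missed the fold. Ctsf (-0.21, adjusted p = 0.132) and Ctsw (-0.10, adjusted p = 0.545), the latter a cathepsin of cytotoxic lymphocytes, missed the adjusted p in limma as well.

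**Figure D3:**
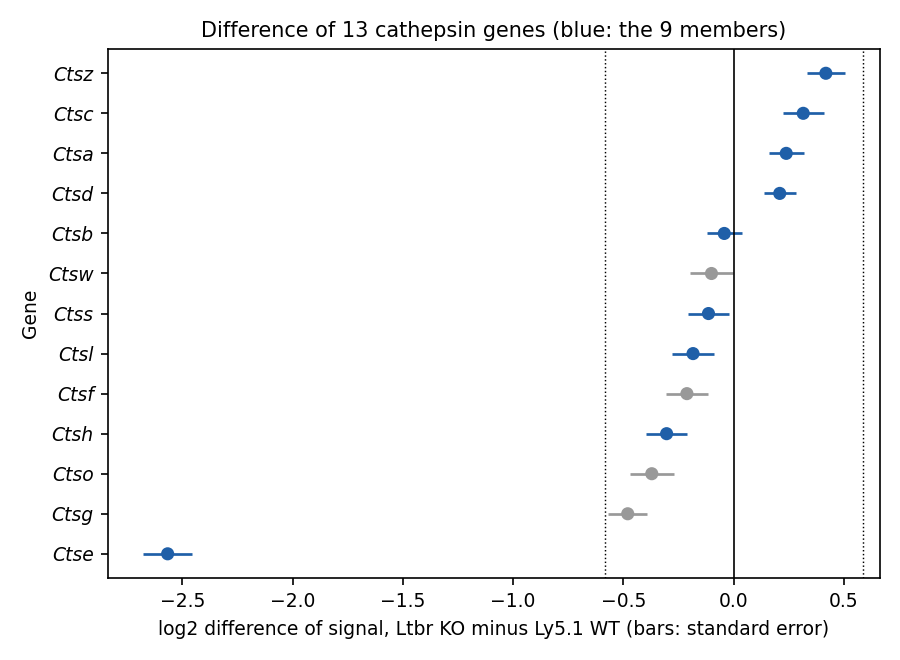
Log2 difference of signal, Ltbr KO minus Ly5.1 WT, with its standard error as a bar, for the 13 cathepsin genes tested (blue, the 9 members, grey, 4 further cathepsins). Dotted lines mark a fold of 1.5 in either direction, and only Ctse, at -2.57, lies beyond them on the deposited scaling, the other 12 falling between -0.48 and 0.42.

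Genes with a part in making, sorting or inhibiting cathepsins were examined next, in lists that leave the members out. Over the union of 7 lists 99 genes were tested and 5 were called, all higher in Ltbr KO (5.05%, against 2.78% of all tested genes). Their median log2 difference was -0.03, beside -0.01 for all tested genes. Without the fold threshold 25 of the 99 passed upwards and 10 downwards, against 10.6% and 4.18% of all tested genes. The direction of these counts rests on the deposited scaling. Centring on ribosomal protein genes gave 78 calls and put 4 of the 5 called genes (Cst7, Lgmn, Lamp1 and Cd63) below 0. All 5 still lay above the median of all tested genes under that centring, which was -0.88.

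Among other aspartic proteases, 4 of 12 listed genes were tested and limma called 0 (2 at an unadjusted p under 0.05). Napsa, whose first active site is shown above beside that of Ctse, had a signal of 3610, 3566 and 3609 in Ltbr KO and of 2894, 2549 and 3098 in Ly5.1 WT. Its log2 difference was 0.34 ± 0.08 (SE, adjusted p = 0.00199 in limma), without reaching the fold of 1.5. When centred on ribosomal protein genes it was -0.53, beside a median of -0.88 for all tested genes. The low level of Ctse was thus not seen in the 4 other aspartic proteases tested.

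Among cathepsin inhibitors, 12 of 27 listed genes were tested, and 1 was called higher. This was Cst7 (cystatin F, an inhibitor that is taken into lysosomes and acts on cathepsin C), with a signal of 884, 814 and 858 in Ltbr KO and of 468, 436 and 518 in Ly5.1 WT. Its log2 difference was 0.85 ± 0.09 (SE, adjusted p = 3.65e-09 in limma), or -0.021 when centred on ribosomal protein genes. Cst3 (cystatin C, the main secreted inhibitor) had 0.34 ± 0.08 (adjusted p = 0.00154 in limma) and missed the fold, and Serpina3g, the inhibitor with the highest mean signal, had -0.03 ± 0.07 (adjusted p = 0.814 in limma). In all 4 inhibitors passed the adjusted p upwards and 2 downwards without the fold, with a median of 0.02.

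Among genes for lysosomal sorting and cathepsin processing, all 22 listed were tested and 1 was called. Lgmn, the gene of legumain, a protease that cuts single-chain cysteine cathepsins into their mature chains, had a signal of 621, 557 and 536 in Ltbr KO and of 317, 352 and 335 in Ly5.1 WT. The groups were well apart, with a log2 difference of 0.77 ± 0.09 (SE, adjusted p = 4.92e-08 in limma), or -0.10 when centred on ribosomal protein genes. Glb1, a lysosomal galactosidase held in a complex with cathepsin A, had 0.42 ± 0.08 (adjusted p = 0.000259 in limma), under the fold. Psap, the gene of prosaposin, had -0.14 ± 0.07 (adjusted p = 0.148 in limma). The median of this list was -0.05.

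Among lysosomal hydrolases and membrane proteins, all 46 listed were tested, 3 were called higher (6.52%, against 2.72% of all tested genes) and 16 passed the adjusted p without the fold, all of them upwards, where 10.6% of all tested genes passed upwards and 4.18% downwards. Besides Lgmn, which stands in both lists, these were Lamp1 and Cd63, membrane proteins of late endosomes and lysosomes. Lamp1 had a signal of 7203, 6983 and 7298 in Ltbr KO and of 4317, 4655 and 4852 in Ly5.1 WT, a log2 difference of 0.64 ± 0.07 (SE, adjusted p = 4.95e-09 in limma), or -0.23 when centred on ribosomal protein genes. Cd63 had a signal of 2320, 2385 and 2571 in Ltbr KO and of 1528, 1589 and 1655 in Ly5.1 WT, a log2 difference of 0.61 ± 0.08 (SE, adjusted p = 3.42e-07 in limma), or -0.26 when so centred. Both are near the fold of 1.5, and Cd63 fell under it without replicate 3 of Ltbr KO (0.57) and without replicate 1 of Ly5.1 WT (0.58). Under quantile normalization Lamp1 (0.45) and Cd63 (0.57) both missed it. Man2b1, a lysosomal mannosidase, had 0.42 ± 0.07 (adjusted p = 3.05e-05 in limma). The median of the whole list was 0.03.

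Transcription factors of lysosomal genes were tested in full (5 of 5), and limma called 0 of them (1 at an unadjusted p under 0.05). Tfec had -0.28 ± 0.10 (adjusted p = 0.0498 in limma), and the repressor Zkscan3 had -0.07 ± 0.09 (adjusted p = 0.673 in limma). Of the granule serine proteases that cathepsin C activates, 8 of 18 were tested and 1 was called. This was Cma1, a mast cell chymase, with a signal of 5354, 5262 and 5795 in Ltbr KO and of 2032, 2102 and 2452 in Ly5.1 WT, and a log2 difference of 1.32 ± 0.08 (SE, adjusted p = 1.44e-15 in limma) that was 0.45 when centred on ribosomal protein genes. The neutrophil protease Prtn3 had -0.24 ± 0.08 (adjusted p = 0.037 in limma), and 3 proteases of this list passed the adjusted p downwards without the fold, among them Ctsg. Neutrophil markers, among which Elane stands in both lists, moved with these genes. Without the fold, 8 of 11 passed the adjusted p downwards, against 4.18% of all tested genes, and 1 passed upwards. Of the 8 mast cell and basophil markers tested, Cma1 itself was the 1 called. Without the fold Cpa3 (0.56) and Gata2 (0.22) also passed upwards and Prss34 (-0.41) passed downwards, and the list median was 0.03. The summed level of this list was 12347 to 12976 in Ltbr KO and 8231 to 9215 in Ly5.1 WT, a gap mostly made of Cma1. The part of these cells in the differences was not tested.

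**Figure D4:**
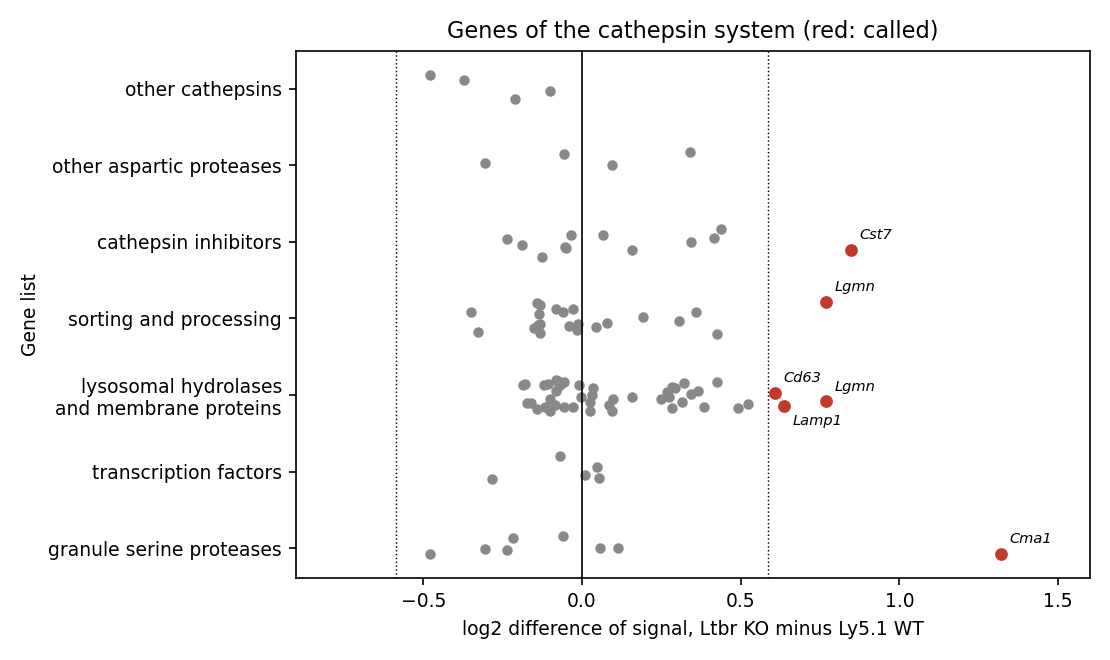
Log2 difference of signal, Ltbr KO minus Ly5.1 WT, of each tested gene in 7 lists of the cathepsin system, with called genes in red and dotted lines at a fold of 1.5. On the deposited scaling the called genes (Cst7, Lgmn, Lamp1, Cd63 and Cma1) all lie on the right. All but Cma1 lie below 0 when centred on ribosomal protein genes, where the median of all tested genes was -0.88.

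Many lysosomal genes carry the CLEAR element, a binding site of the factor TFEB with CACGTG at its core. The promoters of Ctsd and Ctsa, members whose Ltbr KO values were above all Ly5.1 WT values, are shown since each holds CACGTG 2 times. Ctsa has a further promoter in the table, chr2:164832622-164832921, which holds CACGTG 0 times and is not shown. Each run holds 300 bases, from 250 before to 50 after a RefSeq start site, 5′ to 3′ on the gene's strand, with CACGTG in capitals (GRCm38.p6, chr7:142387778-142388077, minus strand, for Ctsd, and chr2:164833523-164833822, plus strand, for Ctsa).
Ctsd promoter: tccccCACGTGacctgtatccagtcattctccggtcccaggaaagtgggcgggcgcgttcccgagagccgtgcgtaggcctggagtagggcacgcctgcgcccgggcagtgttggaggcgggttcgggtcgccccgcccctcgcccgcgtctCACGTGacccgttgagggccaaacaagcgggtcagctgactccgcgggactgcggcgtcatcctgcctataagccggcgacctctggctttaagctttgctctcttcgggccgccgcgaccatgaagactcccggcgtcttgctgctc
Ctsa promoter: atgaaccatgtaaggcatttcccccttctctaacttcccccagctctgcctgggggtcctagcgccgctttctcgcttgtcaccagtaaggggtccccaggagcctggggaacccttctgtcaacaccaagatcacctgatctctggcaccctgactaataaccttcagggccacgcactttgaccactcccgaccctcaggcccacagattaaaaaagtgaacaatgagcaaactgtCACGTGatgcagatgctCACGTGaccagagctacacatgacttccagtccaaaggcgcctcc
Of the 6 members with a promoter in the RefSeq table, 3 (Ctsa, Ctsd and Ctsl) held CACGTG, which reads the same on both strands, and Ctsc, Ctss and Ctsz did not. Ctse, Ctsb and Ctsh had no entry. Counted per gene, with any promoter of a gene sufficing, CACGTG was found in 8.09% of 27025 genes and in 9 of the 36 genes (25%) of the lysosomal hydrolase and membrane protein list that had a promoter, out of 46 listed. Counted per promoter, it was in 7.15% of 32851. The log2 differences were 0.24 (Ctsa), 0.21 (Ctsd) and -0.18 (Ctsl) for members with CACGTG, and 0.42 (Ctsz), 0.32 (Ctsc) and -0.11 (Ctss) for those without. A link between the motif and these differences was not tested.

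The neighbours of Ctse on chromosome 1 were examined because Ptprc, which carries the CD45 difference between the donors, lies 6.387 Mb away. Within 2 Mb of Ctse 33 genes were tested, of which 1 was called higher and 0 lower in limma (3.03%, against 2.78% of all tested genes, with 11 at an unadjusted p under 0.05 in either direction). Their median was -0.07, from -0.34 to 0.78. The called gene was Cd55, a complement regulator that lies 1173 kb before Ctse, with a signal of 1115, 1188 and 1261 in Ltbr KO and of 679, 694 and 700 in Ly5.1 WT. Its log2 difference was 0.78 ± 0.09 (SE, adjusted p = 7.87e-09 in limma), or -0.090 when centred on ribosomal protein genes. The nearest tested genes on each side were Fam72a, 99.28 kb before (0.13 ± 0.07, adjusted p = 0.249 in limma), and Slc41a1, 152.5 kb after (-0.10 ± 0.10, adjusted p = 0.526 in limma). Among 52 tested genes between Ctse and Ptprc, 0 were called higher and 1 lower. That is 1.92%, against 2.78% of all tested genes called in either direction and 0.0610% called lower. The called gene was Ptprv at -0.62 ± 0.09 (adjusted p = 2.33e-06 in limma), chosen for naming after its values were seen. The median of the 52 was -0.06. Ptprc had a log2 difference of -0.19 ± 0.07 (adjusted p = 0.0878 in limma). None of these genes had a difference of the size seen in Ctse. These values do not separate donor strain from loss of Ltbr, and the part of the strain in the level of Ctse was not tested.

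**Figure D5:**
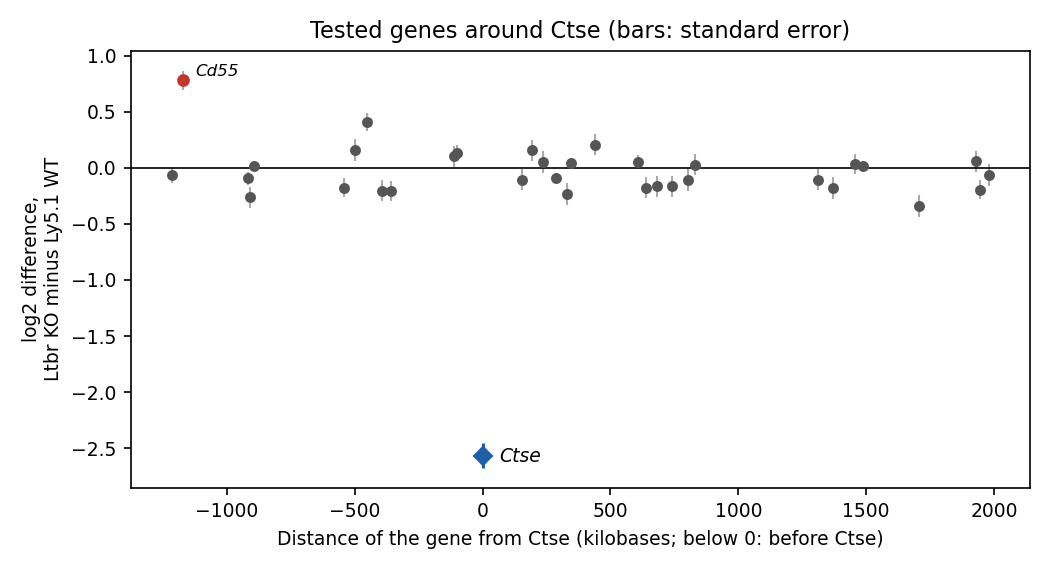
Log2 difference of signal, Ltbr KO minus Ly5.1 WT, with its standard error as a bar, of Ctse (blue diamond) and of 33 tested genes within 2 Mb, against their distance from Ctse in kilobases. Ctse lies at -2.57, and the others lie between -0.34 and 0.78, with Cd55 (red) the one called on the deposited scaling.

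The genes whose pattern over the 6 samples was nearest to that of Ctse, by the root mean square distance of log2 values centred on each gene's own mean, were Igkc (0.722), Igkv1-122 (0.791), Ighm (0.803), Igha (0.858) and Ighv1-82 (0.959). All 5 were among the 8 genes called lower over all tested genes. The distance is not scaled and mainly reflects the size of the difference, so a shared pattern is not read from it. All 5 are immunoglobulin genes, a family whose segments can share reads, so the split between them is uncertain. Igkc had a signal of 204, 209 and 208 in Ltbr KO and of 511, 414 and 515 in Ly5.1 WT, and Ighm had 718, 680 and 575 against 1253, 1332 and 1455. Their log2 differences of -1.21 and -1.04 were smaller in size than that of Ctse. The B and plasma cell markers did not all move one way. Of the 6 tested, Cd79a was called higher, at 274 to 304 in Ltbr KO and 168 to 212 in Ly5.1 WT, and Xbp1 (0.33) passed the adjusted p upwards without the fold. Cd79b was at 300.3 to 357 and 268 to 290.5, while the plasma cell marker Sdc1 had means of 27.6 in Ltbr KO and 28.6 in Ly5.1 WT, without overlap. Pax5 and Ms4a1, which plasma cells also lack, were under 2 in all samples, and Jchain and Mzb1 were not analysed here. The sum of the 12 listed markers in the data, mostly Xbp1, Cd79a and Cd79b, was 1588 to 1698 in Ltbr KO and 1237 to 1422 in Ly5.1 WT. The part of B or plasma cells in the values of the immunoglobulin genes was not tested. Nearest to Ctsd were Psmb2 (0.0200), Trmt1 (0.0211), Myc (0.0254), Atf6b (0.0270) and Jtb (0.0283), with distances smaller than those of Ctse because the pattern of Ctsd was itself shallow.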

How the data were processed

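RNA was sequenced from sorted LT/ST-HSCs of mixed chimeras, 3 samples from each donor genotype. The authors prepared stranded mRNA libraries, sequenced single reads of 76 bases, assembled them with SeqMan NGen and quantified them with ArrayStar. Per the labels, the submitters' processing notes name DESeq2 and the builds GRCm38 and mm10. The authors deposited 1 signal per gene and sample. That its log2 is the regularized log value named in the methods was taken from the values, which have like medians in all samples and equal 1 in all 6 samples for 9034 names. Such values are scaled by size factors and drawn towards the mean for weak genes, so their differences are understated. No counts were used, and depth is unknown from the deposited files, so precision rests on the spread between replicates.

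For a name on several rows, the row with the highest mean was used. Genes in the upper 50% by mean (13108 of 26216 names) were fitted on log2 of the deposited signal, with no pseudocount, in limma 3.58.1 under R 4.3.3 (lmFit, then eBayes with its trend option), with Benjamini-Hochberg adjustment over all of them. The members and lists were chosen with earlier results of these data known. Replicates are pools of chimeras. The p-values and the SEs of log2 differences rest on the spread between these pools, with each gene's variance drawn towards that of genes with like means. Named genes were all members, every gene called in a list and the 2 of its genes with the highest mean, called and nearest neighbours of Ctse, and the 5 genes most like Ctse and Ctsd. Genes named beyond these, including some markers, were chosen after their values were seen. Positions came from RefSeq GRCm38.p6, to which 22316 names matched by symbol and 2222 by synonym, and transcripts and coding sequence from GENCODE for GRCm38. The fit was tested on simulated data before use. Alternatives were other filters, scalings, pseudocounts, variance models and fold thresholds, a replicate block, leaving out each sample, and another transcript length, the last chosen after seeing the data. A few items are not reported here.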

Additional observations from a re-analysis of the deposited data

How the results depend on the processing

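Ctse had a log2 difference of -2.68 to -2.36 when 1 sample at a time was left out, and the median of the other 8 members was 0.06 to 0.11. In the same fits the calls over all tested genes were 334 to 398 higher and 8 to 12 lower, with 4 to 5 calls in the cathepsin system lists and 1 among the neighbours of Ctse. Centring on ribosomal protein genes, of which 77 were used, gave 0 calls higher and 11976 lower, 78 in the lists and 32 among the neighbours, with Ctse at -3.44, the median of the 8 at -0.79 and all tested genes at -0.88. Cd55 (-0.090), Cd63 (-0.26), Cst7 (-0.021), Lamp1 (-0.23) and Lgmn (-0.10) then changed sign, which follows from the shift of all genes by that centring. Quantile normalization gave 28 calls lower, 3 in the lists and a median of the 8 of -0.024, and the cause was not tested. With a stricter filter on the mean 4 were called lower, where fewer genes were tested, Ctsh was not tested and the median of the 8 could not be given. Without a fold threshold there were 1388 calls higher, 548 lower, 35 in the lists and 3 among the neighbours. At a fold of at least 2 there were 37, 5, 1 and 0. Without limma's moderation of the variances there were 270, 7, 5 and 1. In these unmoderated t-tests the adjusted p was 0.00368 for Ltbr, 0.0854 for Ctsg, 0.127 for Napsa and 0.192 for Ctso. The share of Ctse in the summed signal per kb, with the shortest transcript linked to a RefSeq mRNA, was 15.7% in Ly5.1 WT and 2.72% in Ltbr KO.

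The replicate numbers gave no clear sign of pairing. Deviations of same-numbered samples correlated at 0.03, -0.01 and 0.09 over genes, beside -0.07 to 0.05 for the other pairs. With 3 replicates per group these values cannot show whether pools came from the same chimeras. With the replicate block the calls were 356 higher and 8 lower, with 5 in the lists and 1 among the neighbours, and Ctse was at -2.57.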
